A study of Mus musculus with 9 samples.

Results

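The 9 genes described here encode parts of the Nodal and activin branch of TGF-β signalling, and they were taken from the deposited expression table by their gene names: *Nodal*, *Gdf3*, *Inhba*, *Inhbb*, *Tdgf1*, *Lefty1*, *Lefty2*, *Smad7* and *Skil*. All 9 were found among 29069 genes, and 8 of them passed the minimum level for testing, as did 18156 genes in all. The exception was *Inhba*. Total RNA was sequenced from D3, an established line of mouse embryonic stem cells (mESC) kept here without feeder cells, after 24 h in 1 of 3 media with 3 replicates each, every sample coming from a dish of its own. Ground state medium (GS) was N2B27 without serum, with the MEK inhibitor PD0325901 at 1 µM, the GSK-3 inhibitor CHIR99021 at 3 µM and leukaemia inhibitory factor (LIF) at 20 ng/mL. Differentiation medium (DM) was DMEM with 10% fetal bovine serum (FBS) and neither the inhibitors nor LIF, and NO medium was DM with 250 µM of the nitric oxide donor DETA/NO. GS and DM thus differed in basal medium, serum, inhibitors and LIF at once, and the parts played by these cannot be told apart, whereas NO and DM differed by the addition of DETA/NO. All samples are of 1 cell line, so that other lines are not represented.

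Nodal, GDF3 and the activins are secreted ligands of the TGF-β family, the activins being dimers of the inhibin β chains that *Inhba* and *Inhbb* encode. They bind type II activin receptors and the type I receptor ALK4 or ALK7, Nodal and GDF3 together with the co-receptor Cripto (*Tdgf1*), and the receptors phosphorylate SMAD2 and SMAD3, which enter the nucleus with SMAD4 and act on genes with partners such as FOXH1. *Lefty1* and *Lefty2* are targets of the pathway and encode secreted inhibitors that bind Nodal or its co-receptor, while SMAD7 blocks the type I receptor and SKIL (SnoN) is a nuclear co-repressor of the SMADs. In the mouse embryo the pathway maintains the epiblast and induces mesendoderm, and it is active in mESC in culture.

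On release from GS into DM, *Lefty1* and *Inhbb* were called higher and *Skil* was higher by less than 2-fold, whereas *Nodal*, *Gdf3*, *Tdgf1*, *Lefty2* and *Smad7* passed no test. With the nitric oxide donor, *Nodal* was higher than in either other medium, by less than 2-fold. Of 20 alternative analyses that kept the thresholds of the call, its adjusted p-value was under 0.05 in 15 against DM and in 12 against GS. The mRNAs of the inhibitors *Lefty1* and *Skil* were called lower than in DM in all 20. *Lefty2* was also called lower than in DM, a call made in only 4 of those 20. Levels are normalised counts, meaning read counts scaled by the size factor of each sample, and differences are log2 fold changes of limma on log2(normalised count + 1), given with the standard error (SE) and a Benjamini-Hochberg adjusted p-value over all genes tested. A gene was called higher or lower when the adjusted p-value was under 0.05 and the change at least 2-fold. In bulk RNA, fewer cells with a transcript and less of it per cell cannot be told apart.

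Between DM and GS, limma called 2 of the 8 tested members higher and none lower (none also at an unadjusted p under 0.05), where 2.94% of all tested genes were called higher and 1.27% lower. Between NO and GS, 1 member was called higher and none lower, against a background of 10.1% called higher and 1.64% called lower. Between NO and DM no member was called higher and 3 were called lower, against 6.78% and 1.77%. At an unadjusted p under 0.05 in limma, with no minimum fold change, 4 members were lower and 2 higher in NO than in GS. By the same measure 5 were lower and 1 higher in NO than in DM. The share of all genes at an unadjusted p was not counted, and the shares above are not a background for these counts. The moderated F test over the 3 media, which carries no minimum fold change, passed 4 of the 8 members (*Nodal*, *Inhbb*, *Lefty1* and *Skil*), where it passed 23.3% of all genes. The median log2 fold change of the 8 members was 0.14 in DM against GS, -0.35 in NO against GS and -0.94 in NO against DM, beside medians over all tested genes of -0.0007, -0.02 and 0.001. DM against GS and NO against GS share the GS samples, and each member's values in both are therefore given side by side.

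**Figure D1:**
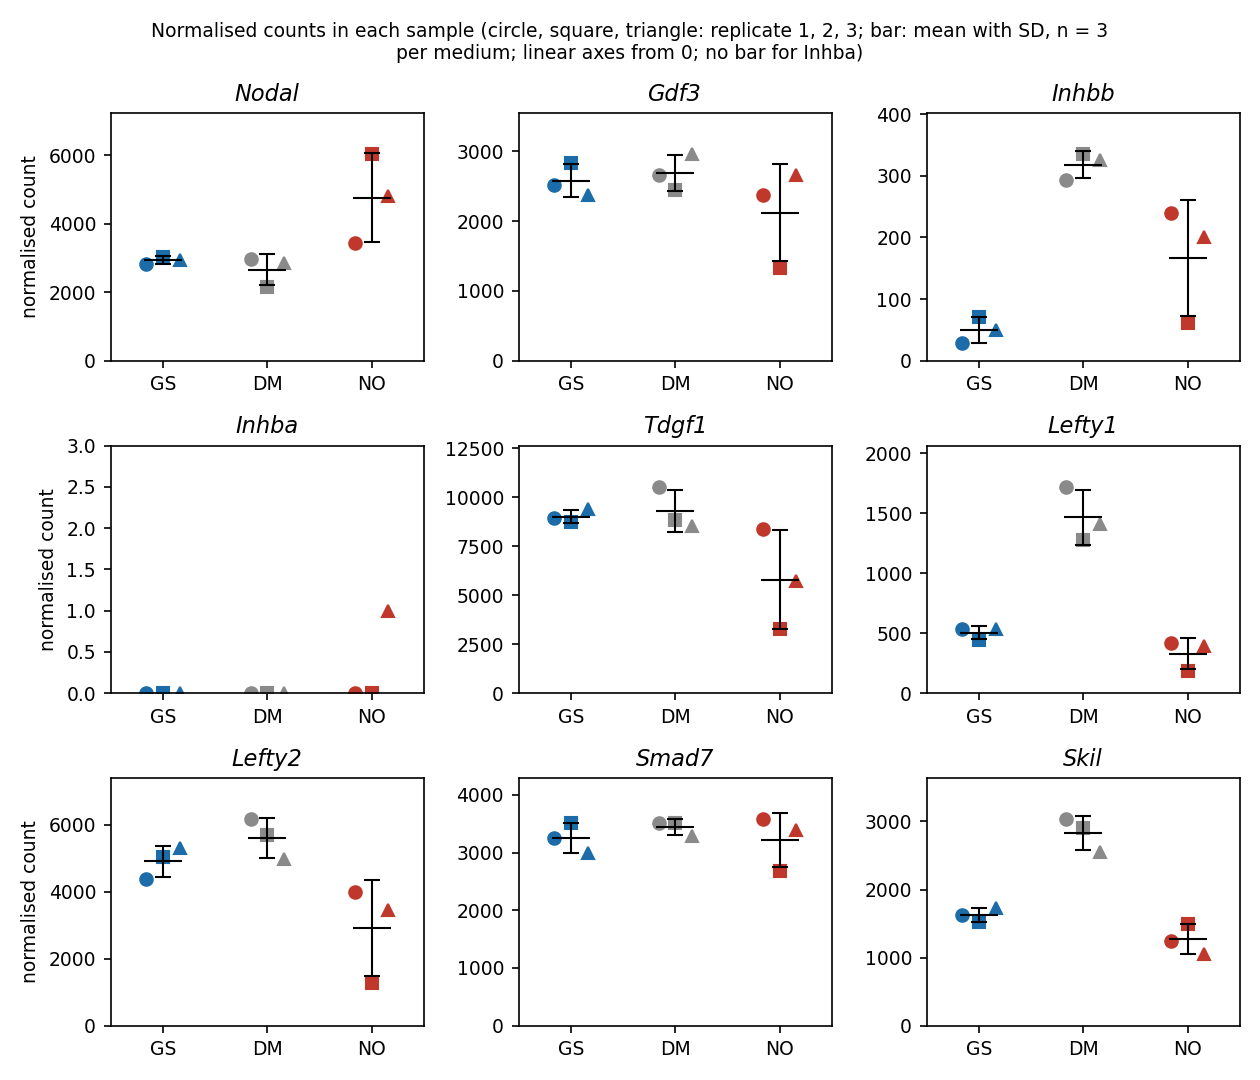
Normalised count (linear axis from 0) of the 9 genes in every GS, DM and NO sample, with replicates 1, 2 and 3 as circle, square and triangle and the bar at the mean with its SD (n = 3). The 3 DM samples stand above GS and NO for Lefty1, Inhbb and Skil, NO samples stand highest for Nodal, and NO replicate 2 is the lowest NO sample for 6 of the 8 tested genes.

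The labels named no sequencing batch. By the study's methods the RNA libraries were pooled in pairs for each sequencing run, but the methods do not say which libraries shared a run. Differences between runs could therefore not be examined. Totals of the normalised counts were 18290445 to 20508679 per sample, and the depth estimated from the spacing of low values was 14300000 to 27060000 assigned reads, with 1 read worth 0.701 to 1.32 normalised counts. Among the 8 mESC markers, *Tfcp2l1* was called lower in DM and in NO than in GS and *Utf1* higher in DM than in GS and lower in NO than in DM, and the summed level of the list was 103625 to 106292 in GS, 86657 to 91233 in DM and 85428, 53854 and 84007 in NO replicates 1, 2 and 3. All 8 were read in every sample. Reads of these markers do not show how far the cells kept the mESC state in each medium. Some markers of other cell types were called higher in NO, as given below. The NO samples stood apart from each other on the first principal component of all tested genes (50.34% of the variance), at 25.89, 131.25 and 67.12 for replicates 1 to 3, where GS lay between -49.09 and -41.46 and DM between -33.09 and -25.99.

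*Nodal* (ENSMUSG00000037171, chr10:61417972-61425338, plus strand, GRCm38) encodes the ligand that gives the pathway its name. Its normalised counts were 2838, 3044 and 2946 in GS replicates 1, 2 and 3, 2972, 2143 and 2863 in DM, and 3430, 6033 and 4813 in NO. All 3 NO values lay above every GS and DM value, while those of GS and DM overlapped. *Nodal* was higher in NO than in DM by a log2 fold change of 0.82 ± 0.20 (SE, 1.76-fold, adjusted p = 0.021 in limma) and higher in NO than in GS by 0.66 ± 0.20 (1.58-fold, adjusted p = 0.037), both short of the 2-fold minimum. DM and GS differed by -0.16 ± 0.20 (adjusted p = 0.713), with a 95% interval from -0.59 to 0.27. Both differences of NO rested in part on NO replicate 2, the highest of the 3. Without it the changes were 0.63 against DM (adjusted p = 0.0569) and 0.47 against GS (adjusted p = 0.113). Over 20 alternative analyses the adjusted p-value stayed under 0.05 in 15 for NO against DM and in 12 for NO against GS.

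The 250 bases before the start of the gene (RefSeq, GRCm38.p6) are shown for the 2 ligands whose levels passed a test, *Nodal* (chr10:61417722-61417971, plus strand) and *Inhbb* (chr1:119422249-119422498, minus strand), and for the co-receptor *Tdgf1* (chr9:110946159-110946408, minus strand), the only 1 of the 4 members with such a sequence at hand that held a motif searched for. The capitals mark matches to CAGAC, a letter string bound by SMAD3 and SMAD4, or to AATNNACA, a string bound by FOXH1, both searched on both strands.
Nodal: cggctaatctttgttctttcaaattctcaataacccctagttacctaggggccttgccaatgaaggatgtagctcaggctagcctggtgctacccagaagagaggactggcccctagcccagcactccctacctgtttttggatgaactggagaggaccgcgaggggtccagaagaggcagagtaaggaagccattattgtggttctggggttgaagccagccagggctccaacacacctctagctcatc
Inhbb: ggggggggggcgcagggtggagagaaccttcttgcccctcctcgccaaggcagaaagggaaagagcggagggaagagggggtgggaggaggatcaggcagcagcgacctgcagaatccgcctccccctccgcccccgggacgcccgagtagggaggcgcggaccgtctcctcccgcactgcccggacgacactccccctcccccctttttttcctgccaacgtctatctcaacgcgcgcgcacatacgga
Tdgf1: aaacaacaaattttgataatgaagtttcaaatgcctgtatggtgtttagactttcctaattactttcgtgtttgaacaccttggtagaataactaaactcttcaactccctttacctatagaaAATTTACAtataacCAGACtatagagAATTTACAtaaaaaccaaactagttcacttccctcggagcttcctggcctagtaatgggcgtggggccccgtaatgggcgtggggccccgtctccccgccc

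No letters of either kind were found in these windows of *Nodal*, *Inhbb* and *Inhba*. The *Tdgf1* window held 2 matches to the FOXH1 string, which began 127 and 101 bases before the start, and 1 match to CAGAC at 113 bases between them, with no overlap. Of 32851 windows of the same length before mouse gene starts, 42.19% held CAGAC and 10.93% the FOXH1 string. The palindrome GTCTAGAC, which contains neither, was in 0.17% of all windows and in none of the 4. A match is a description of the letters only, and sites farther from the start were not searched.

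*Gdf3* (ENSMUSG00000030117, chr6:122605403-122610087, minus strand) encodes a ligand that signals through the same receptors as Nodal and can form dimers with it. Its normalised counts were 2513, 2840 and 2377 in GS, 2657, 2453 and 2958 in DM, and 2368, 1334 and 2660 in NO. The groups overlapped in all 3 comparisons, and NO replicate 2 was the lowest of the 9 samples. The log2 fold changes were 0.06 ± 0.22 for DM against GS, -0.34 ± 0.22 for NO against GS and -0.40 ± 0.22 for NO against DM (adjusted p = 0.913, 0.3 and 0.239), and the 95% interval of the last ran from -0.88 to 0.08.

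The 2 activin genes differed widely in level. *Inhbb* (ENSMUSG00000037035, chr1:119415465-119422248, minus strand), which encodes the chain of activin B, was at 28, 71 and 50 normalised counts in the GS samples, at 293, 335 and 326 in DM, and 239, 61 and 200 in NO. All DM values were above all GS and NO values, while NO replicate 2 fell within the range of GS. *Inhbb* rose in DM against GS by 2.75 ± 0.46 on the log2 scale (6.72-fold, adjusted p = 0.00412), the largest change among the members, and it was called in 20 of 20 alternatives. It was also called higher in NO than in GS, by 1.60 ± 0.46 (3.04-fold, adjusted p = 0.03), although the groups overlapped and the call was made in only 12 of 20 alternatives. NO against DM gave -1.14 ± 0.46 (adjusted p = 0.113), a value that was -0.54 without NO replicate 2 (adjusted p = 0.354) and -1.51, and called, without NO replicate 1 (adjusted p = 0.0337). Without NO replicate 2 the value against GS was 2.21 (adjusted p = 0.00115), whereas it was 1.24 without NO replicate 1 (adjusted p = 0.0654), 1.36 without NO replicate 3 (adjusted p = 0.105), 1.25 without GS replicate 1 (adjusted p = 0.113) and 1.66 without GS replicate 3 (adjusted p = 0.0773).

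*Inhba* (ENSMUSG00000041324, chr13:16011851-16031621, plus strand), which encodes the chain of activin A, was at 0 in 8 samples and at 1 normalised count in NO replicate 3. It was therefore not tested. A count of 0 allows up to 3 reads, which came to 2.10 to 3.97 normalised counts depending on the sample, so that levels below these were not detectable at this depth. This floor covers counting error only.

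*Tdgf1* (ENSMUSG00000032494, chr9:110939603-110946158, minus strand), the Cripto gene, was the member with the highest level per kb of exon in all GS and DM samples. Its normalised counts were 8915, 8730 and 9380 in GS, 10532, 8816 and 8547 in DM, and 8362, 3293 and 5700 in NO. The 3 NO values lay below those of both other media, which overlapped each other, but they were spread over a wide range. In the main fit, on all 9 samples and without a replicate block, no comparison passed the test. The log2 fold change was -0.74 ± 0.26 in NO against GS and -0.78 ± 0.26 in NO against DM (adjusted p = 0.0671 and 0.0668), and 0.04 ± 0.26 in DM against GS (adjusted p = 0.957). With the replicate number as a block the adjusted p-values of the NO comparisons were 0.045 and 0.0463, for changes still under 2-fold. Without NO replicate 1 *Tdgf1* was called lower in NO, by -1.06 against GS and -1.10 against DM (adjusted p = 0.00381 and 0.00385), and without NO replicate 2 it was at -0.38 and -0.42 (adjusted p = 0.172 in both). Of the 60-base words in its exons, 7.7% also occurred in the pseudogene *Tdgf1-ps1*, and reads that matched several positions had been left out by the authors. The pseudogene was at 314 to 422 normalised counts in GS and DM and at 233, 166 and 309 in NO, far below *Tdgf1* itself.

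*Lefty1* (ENSMUSG00000038793, chr1:180935022-180938400) and *Lefty2* (ENSMUSG00000066652, chr1:180893108-180899103) lie on the plus strand near each other and encode closely alike inhibitors. Their coding sequences are 1107 bases each and 91.87% identical, with 1017 bases in common and a longest identical run of 140 bases. The 60 coding bases in which they differ most (bases 34 to 93 from the start codon, 18 of them different and in capitals) are shown with 60 bases in which they are the same (bases 272 to 331), since these letters set which reads could be assigned to 1 of the 2 genes.
Lefty1, bases 34 to 93: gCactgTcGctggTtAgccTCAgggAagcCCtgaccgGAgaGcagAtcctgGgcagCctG
Lefty2, bases 34 to 93: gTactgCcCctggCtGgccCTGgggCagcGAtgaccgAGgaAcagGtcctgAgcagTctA
Lefty1 and Lefty2, bases 272 to 331: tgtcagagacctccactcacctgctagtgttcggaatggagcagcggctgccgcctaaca

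A read lying wholly within a stretch such as the last could not be placed and did not enter either count. Over all exons, 15.14% of the 60-base words of *Lefty1* and 10.08% of those of *Lefty2* were shared with the other gene and with no further gene. The deposited levels of both genes can therefore be too low.

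The normalised counts of *Lefty1* were 534, 445 and 537 in GS, 1720, 1274 and 1406 in DM, and 414, 181 and 396 in NO. The 3 media did not overlap: DM was highest, GS intermediate and NO lowest. *Lefty1* had a mean of 505 ± 52.3 in GS and 1467 ± 229 in DM (SD, n = 3) and thus rose by 1.53 ± 0.27 on the log2 scale (SE, 2.89-fold, adjusted p = 0.00566). In NO it was at 330 ± 130, lower than in DM by -2.23 ± 0.27 (4.69-fold, adjusted p = 0.00188). Both calls were made in 20 of 20 alternatives, with log2 fold changes between 1.41 and 1.63 and between -2.44 and -1.84. NO against GS gave -0.70 ± 0.27 (adjusted p = 0.0901, and 0.0417 with the replicate block), under 2-fold in either case.

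*Lefty2* was the more abundant of the 2 also per kb of exon, at 4388, 5034 and 5307 normalised counts in the GS samples, 6171, 5695 and 4986 in DM, and 3999, 1289 and 3462 in NO. GS and DM overlapped, and all NO values lay below both. Against GS, *Lefty2* in DM differed by 0.19 ± 0.33 (adjusted p = 0.801), where *Lefty1* had risen. In NO against DM *Lefty2* was called lower, by -1.10 ± 0.33 (2.14-fold, adjusted p = 0.0459), and in NO against GS it was at -0.90 ± 0.33 (adjusted p = 0.0722). The call in NO against DM lay close to both thresholds and was made in only 4 of 20 alternatives, with adjusted p-values from 0.00783 to 0.123. Without NO replicate 2, the lowest of all samples, the change was -0.59 (adjusted p = 0.0323) and so under 2-fold. Without NO replicate 1 it was -1.40 (adjusted p = 0.00783).

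*Smad7* (ENSMUSG00000025880) is an inhibitor that the pathway itself induces in many cells. Its normalised counts were 3256, 3517 and 2987 in GS, 3519, 3515 and 3290 in DM, and 3576, 2680 and 3394 in NO. The 3 media overlapped, and no comparison passed the test. The 95% intervals of the log2 fold change were -0.22 to 0.39 for DM against GS, -0.33 to 0.28 for NO against GS and -0.41 to 0.20 for NO against DM (adjusted p = 0.797, 0.925 and 0.637), so that changes of 2-fold in either direction lay outside all 3.

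*Skil* (ENSMUSG00000027660, chr3:31095058-31122577, plus strand), the co-repressor, had normalised counts of 1628, 1518 and 1729 in GS, 3032, 2899 and 2553 in DM, and 1249, 1499 and 1059 in NO. As for *Lefty1*, the 3 media did not overlap, with DM highest and NO lowest. *Skil* rose in DM against GS by 0.80 ± 0.15 (1.74-fold, adjusted p = 0.0072), which is under 2-fold, and this adjusted p-value was under 0.05 in 20 of 20 alternatives. In NO it was called lower than in DM, by -1.17 ± 0.15 (2.24-fold, adjusted p = 0.00195), again in 20 of 20. NO against GS gave -0.37 ± 0.15 (adjusted p = 0.0995).

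**Figure D2:**
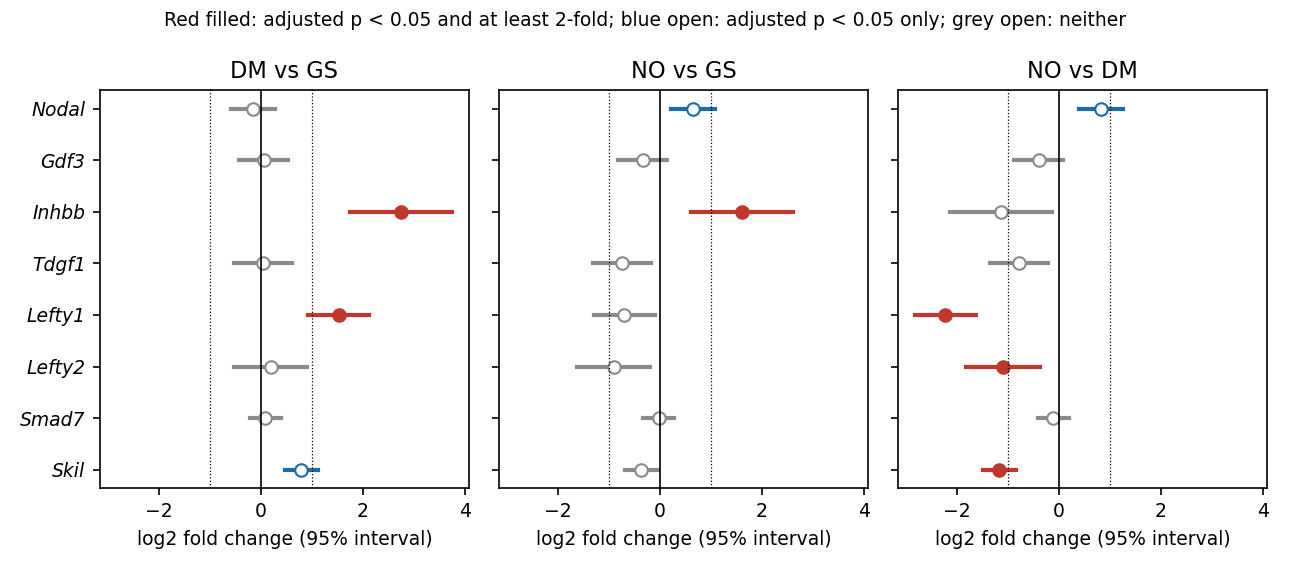
Log2 fold change (x axis) with its 95% interval for the 8 tested genes in DM against GS, NO against GS and NO against DM, from limma on all 9 samples; filled red points passed an adjusted p of 0.05 and 2-fold, open blue points the adjusted p only, open grey points neither, and dotted lines mark 2-fold. Lefty1 and Inhbb stand to the right in DM against GS (1.53 and 2.75), and Lefty1, Lefty2 and Skil to the left in NO against DM (-2.23, -1.10 and -1.17) with Nodal to the right (0.82).

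Divided by the length of the exons, the levels could be ordered between genes. In GS the order was *Tdgf1* (3436 normalised counts per kb), *Lefty2* (1880), *Nodal* (1405), *Gdf3* (1063), *Smad7* (720), *Lefty1* (287), *Skil* (168), *Inhbb* (11.7) and *Inhba* (0), and no neighbours overlapped over the 3 samples. In DM *Tdgf1* (3546) and *Lefty2* (2151) again led, *Nodal* (1269) overlapped *Gdf3* (1110), and *Lefty1* (834) had reached the level of *Smad7* (761), with which it overlapped, ahead of *Skil* (292) and *Inhbb* (74.7). In NO the means of *Nodal* (2271 ± 622, SD) and *Tdgf1* (2206 ± 967) were alike, and *Lefty2* (1117 ± 550), *Gdf3* (875 ± 288) and *Smad7* (711 ± 105) followed, each overlapping the next, before *Lefty1* (188), which overlapped *Skil* (131), and *Inhbb* (39.2). The ligand gene *Nodal* thus stood behind *Tdgf1* and *Lefty2* in GS and DM. In NO only its mean was like that of *Tdgf1*, as the ratio of *Tdgf1* to *Nodal* was 1.95, 0.436 and 0.946 in replicates 1, 2 and 3. The spread over NO samples does not allow the leading 5 to be put in order between neighbours.

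Ratios within a sample do not depend on the scaling of that sample. The ratio of *Lefty2* to *Lefty1* per kb was 5.53, 7.62 and 6.65 in GS, 2.42, 3.01 and 2.39 in DM, and 6.50, 4.80 and 5.89 in NO. It was lower in all 3 DM samples than in any other. For 3 samples against 3 an exact permutation test cannot give a p-value below 0.1, and this was the value for DM against GS and for NO against DM (two-sided), with 0.4 for NO against GS. The summed *Lefty1* and *Lefty2* level per unit of *Nodal* was 1.46, 1.50 and 1.66 in GS, 2.36, 2.84 and 1.98 in DM, and 1.08, 0.207 and 0.675 in NO. The 3 media did not overlap in this ratio, and the exact p-value was 0.1 in each comparison. *Tdgf1* per unit of *Nodal* was 2.51, 2.29 and 2.54 in GS, 2.83, 3.29 and 2.39 in DM, and 1.95, 0.436 and 0.946 in NO, with all NO samples below the others (exact p = 0.1 against each) and GS and DM overlapping (exact p = 0.3). These 9 p-values were not adjusted, as none was under 0.1.

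**Figure D3:**
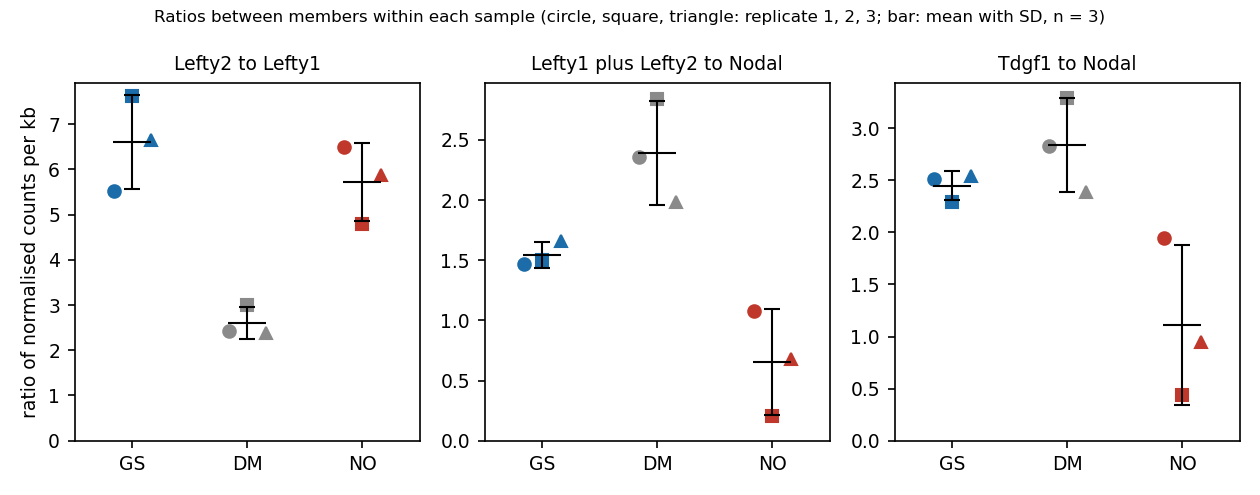
Ratios of normalised counts per kb of exon within each sample (linear axes from 0), with replicates 1, 2 and 3 as circle, square and triangle and the bar at the mean with its SD (n = 3). Lefty2 to Lefty1 is lowest in DM (2.60 ± 0.35), and both Lefty1 plus Lefty2 to Nodal and Tdgf1 to Nodal are lowest in NO, where replicate 2 lies at 0.207 and 0.436.

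The members varied more among NO samples than among those of the other media: the SD on the log2 scale was larger in NO than in GS and in DM for 8 of 8 tested members. It was 0.89 for *Lefty2*, against 0.14 in GS and 0.16 in DM, and 0.68 for *Tdgf1*, against 0.05 and 0.16. NO replicate 2 was the lowest NO sample for 6 members (*Gdf3*, *Inhbb*, *Tdgf1*, *Lefty1*, *Lefty2* and *Smad7*) and the highest for the others, *Nodal* and *Skil*. These counts were not made over all tested genes, so they do not set the members apart. The NO samples also lay apart on the first principal component of all tested genes, as given above. Against the mean of DM, *Nodal* was at 0.38, 1.20 and 0.87 in NO replicates 1, 2 and 3, *Tdgf1* at -0.15, -1.49 and -0.70, and *Lefty1* at -1.81, -3.00 and -1.87. The order of the replicates in *Nodal* was that of the first principal component. It was the reverse in *Tdgf1*, *Lefty1*, *Lefty2*, *Inhbb* and *Smad7*. *Lefty1* was below every GS and DM sample also in replicates 1 and 3. *Skil* and *Gdf3* followed neither order.

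Some markers of other cell types moved with the same samples. The summed level of 6 keratinocyte and squamous epithelium markers was 5 to 15 in GS, 3 to 5 in DM and 63, 697 and 221 in NO replicates 1, 2 and 3. Only *Krt5* and *Krt15* among these 6 passed the minimum for testing, and both were called higher in NO than in either medium. *Krt5* was at 0 in the 3 GS samples and in 2 DM samples, whereas *Trp63*, the squamous transcription factor of the list, was at 14, 5 and 7 in GS, 1, 1 and 0 in DM and 2, 4 and 3 in NO. The 8 trophoblast markers summed to 1240 to 1338 in GS, 841 to 1048 in DM and 1139, 2332 and 1464 in NO, with 4 of 8 called higher in NO than in DM, and 2 higher and 1 lower in NO than in GS. The lower one was *Cdx2*, a defining marker, at 54, 75 and 46 in GS, 0, 4 and 0 in DM and 3, 14 and 5 in NO (-3.03 in NO against GS, adjusted p = 0.011). The 7 mesoderm markers summed to 307 to 362 in GS, 134 to 142 in DM and 182, 456 and 234 in NO, and 2 of them were called higher in NO than in DM (*T* and *Hand1*) and 2 higher than in GS (*Mesp1* and *Hand1*), with *T* lower than in GS. Of these markers *T* is also a listed target of the pathway, *Hand1* a trophoblast marker and *Pdgfra* a primitive endoderm marker. Primitive endoderm markers were at 7929 to 8667, 3950 to 4988 and 5713 to 6694, a sum in which *Lama1*, called lower in DM and in NO than in GS, took the most in GS and DM. Some other members of that list were highest in NO replicate 2, *Gata6* being at 20, 234 and 90 in NO and called higher than in GS (2.87, adjusted p = 0.0175) and in DM (3.13, adjusted p = 0.0181). *Col4a1* was called higher in DM and in NO than in GS, and *Sox17* and *Pdgfra*, at 69 and 170 in NO replicate 2, passed no comparison. Fibroblast markers summed to 319 to 494 over all samples, but *Thy1* was called higher in DM (1.70) and in NO (1.47) than in GS, and *Col1a1*, at 39, 88 and 39 in NO, higher than in GS (1.49, adjusted p = 0.0207) and in DM (1.56, adjusted p = 0.0239). *Twist2* was at 0 in GS and DM. The parts of these cell types in the values of the members were not tested.

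A further 51 genes of the pathway were listed as ligands, receptors, processing enzymes, antagonists, SMADs and targets, and 43 of them were tested. In DM against GS 4 were called higher and 3 lower, in NO against GS 1 higher and 3 lower, and in NO against DM 3 higher and 3 lower, beside the shares of all genes given above. Their median log2 fold changes were -0.0037, -0.04 and -0.02. Calls fell among ligands, TGF-β receptors and targets, with 1 among the intracellular antagonists and none among SMADs and their partners. Of the 8 listed genes that were not tested, 6 were at or under the minimum mean of 5 (*Acvr1c*, *Cfc1*, *Cer1*, *Foxa2*, *Fgf8* and *Cyp26a1*), and *Gdf1* and *Mstn* were not analysed here.

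Among ligands, *Inha*, the inhibin α chain that opposes activin, was at 12, 14 and 3 normalised counts in the GS samples, 35, 25 and 46 in DM, and 15, 13 and 20 in NO. It was called higher in DM than in GS (1.94 ± 0.50, adjusted p = 0.0414). *Inhbc*, a further inhibin β chain, was at 6, 11 and 12, then 52, 36 and 73, then 32, 13 and 13, and it was called higher in DM than in GS (2.35 ± 0.45, adjusted p = 0.00821) and lower in NO than in DM (-1.50 ± 0.45, adjusted p = 0.0458). Like *Inhbb*, *Inha* and *Inhbc* were higher in every DM sample than in any other sample, whereas *Inhbe*, which encodes another β chain, overlapped between DM and NO at 17 to 29 and 9 to 23. *Tgfb1*, the TGF-β1 ligand, was at 55, 32 and 26 in GS, 82, 93 and 185 in DM, and 88, 65 and 82 in NO, and was called higher in DM (1.62 ± 0.35, adjusted p = 0.0186) and in NO (1.10 ± 0.35, adjusted p = 0.049) than in GS. The other 4 tested ligands passed no test.

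None of the receptors of Nodal and activin was called by limma in any comparison, and only *Acvr2a* in DM against GS had an unadjusted p under 0.05 (adjusted p = 0.242). *Acvr1b*, which encodes ALK4, was at 1389 ± 168 normalised counts (SD, n = 3) in GS, 1363 ± 114 in DM and 1343 ± 37.5 in NO. For the type II receptors, *Acvr2a* and *Acvr2b* were at 383 ± 20.0 and 261 ± 9.07 in GS, 289 ± 73.3 and 306 ± 67.9 in DM, and 356 ± 35.4 and 245 ± 41.1 in NO. *Acvr1c*, which encodes ALK7, and *Cfc1*, which encodes a co-receptor related to Cripto, had between 0 and 8 normalised counts and were not tested. Of the TGF-β receptors, *Tgfbr2* was at 57, 61 and 60 in GS, 26, 39 and 43 in DM and 79, 128 and 80 in NO, and *Tgfbr3*, a co-receptor, at 176, 157 and 140, at 36, 53 and 73, and at 145, 887 and 286. Both were called higher in NO than in DM, by 1.38 ± 0.28 and 2.66 ± 0.51 (adjusted p = 0.0107 and 0.0084), with NO replicate 2 the highest sample for each. *Tgfbr1*, at 635 to 1357 in all samples, passed no test.

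The 6 listed SMADs and partners, *Smad2*, *Smad3*, *Smad4*, *Foxh1*, *Zfyve9* and *Trim33*, were all tested, and limma called none, *Foxh1* in DM against GS and *Zfyve9* and *Trim33* in NO against GS having an unadjusted p under 0.05. *Smad4* was at 1563 ± 20.0, 1575 ± 55.5 and 1410 ± 115 in GS, DM and NO, *Smad2* at 1362 ± 99.3, 1190 ± 63.6 and 1161 ± 99.1, and *Smad3* at 861 ± 126, 696 ± 7.37 and 831 ± 314. *Foxh1* was at 689 ± 148, 951 ± 165 and 849 ± 94.7 (adjusted p = 0.182 for DM against GS). Of 10 intracellular antagonists other than *Smad7* and *Skil*, only *Tgif2*, a SMAD co-repressor, was called, lower in NO than in DM (-1.04 ± 0.21, adjusted p = 0.0111). *Ski*, the relative of *Skil*, was at 2040 ± 136, 2498 ± 87.8 and 2458 ± 526 and passed no test. Of the secreted antagonists, *Fst*, which encodes the activin-binding protein follistatin, was higher in NO than in DM by 1.00 ± 0.26 (adjusted p = 0.0274), just under 2-fold, and *Cer1* had at most 1 normalised count in any sample.

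The targets were split. *Otx2*, a transcription factor of the epiblast and forebrain, was at 378, 314 and 392 normalised counts in the GS samples, 1582, 1535 and 1685 in DM, and 717, 219 and 485 in NO. It was highest in the 3 DM samples, as *Lefty1* was, with calls of 2.15 ± 0.32 in DM against GS (adjusted p = 0.00218) and -1.91 ± 0.32 in NO against DM (adjusted p = 0.00527). *Gsc*, *Eomes* and *T*, which mark mesendoderm in the embryo, were highest in GS. *T* was at 137, 183 and 131 in GS, 10, 1 and 0 in DM, and 8, 28 and 22 in NO, *Eomes* at 229, 308 and 298, at 111, 170 and 122, and at 90, 91 and 118, and *Gsc* at 26 to 43, 4 to 9 and 3 to 7. All 3 were called lower in DM and in NO than in GS, with log2 fold changes of -5.74, -1.06 and -2.46 for *T*, *Eomes* and *Gsc* in DM and -3.04, -1.47 and -2.67 in NO (adjusted p from 0.000882 to 0.0151). *T* was called higher in NO than in DM (2.70 ± 0.74, adjusted p = 0.0342), although the groups overlapped and its values there rest on few reads. *Mixl1* was tested and passed no comparison.

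**Figure D4:**
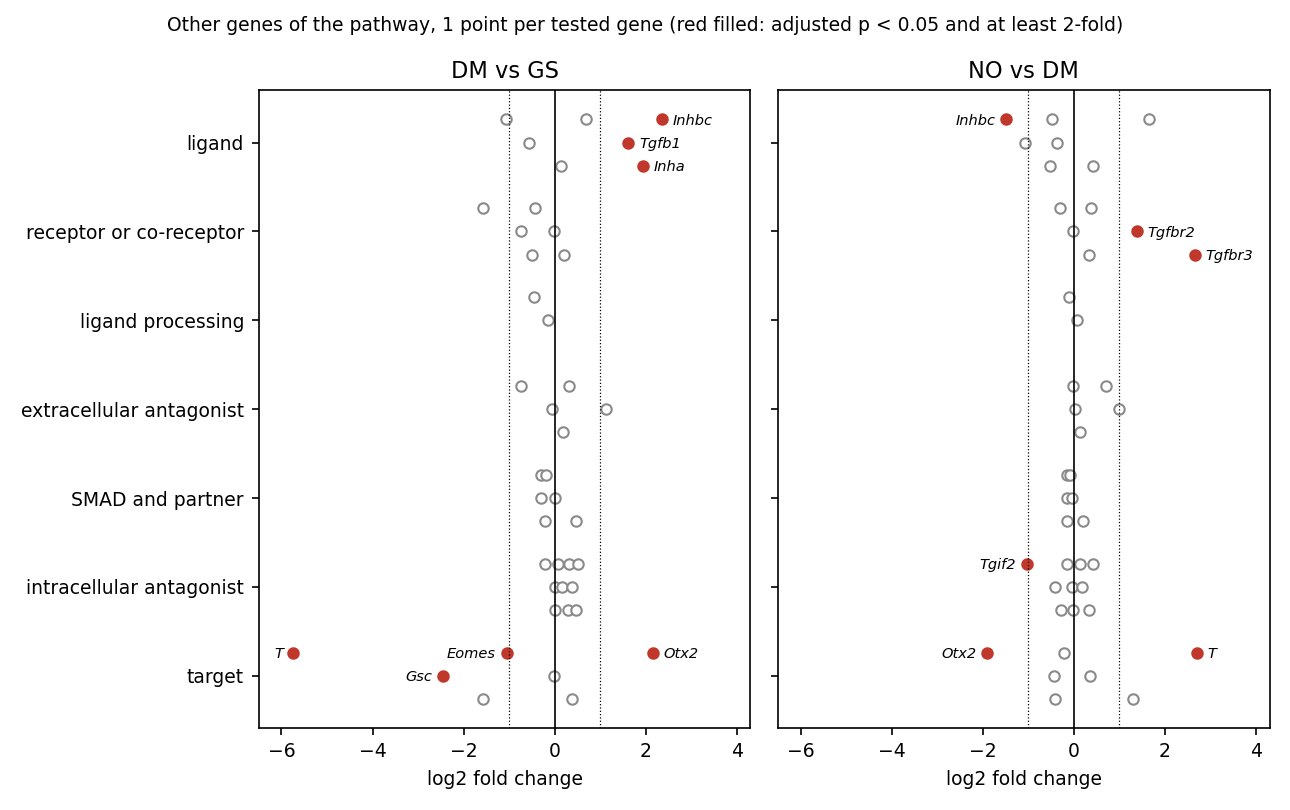
Log2 fold change (x axis) of the 43 tested genes of the pathway other than the 9 members, by their role (y axis), in DM against GS and in NO against DM; each point is 1 gene, shifted vertically for legibility, filled red with its name where the adjusted p was under 0.05 and the change at least 2-fold. SMADs and partners lie near 0 in both, T, Gsc and Eomes to the left in DM against GS, and Tgfbr2, Tgfbr3 and T to the right in NO against DM.

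For the 4 members that passed the F test, the genes with the most similar pattern were sought by Pearson's r of log2(normalised count + 1) over the 9 samples among 11313 genes with a mean of at least 50. These correlations describe 9 samples of 3 media that share their libraries, and no p-value is attached. For *Nodal* they were *Usp17lb* (r = 0.983), a member of a multigene family whose counts are uncertain, and *Sfn* (r = 0.982), which was at 383, 431 and 381 in GS, 344, 266 and 337 in DM, and 580, 1779 and 1021 in NO. For *Lefty1* they were *Rcor2* (r = 0.989) and *Arhgap30* (r = 0.981), *Rcor2* being at 1560 to 1597 in GS, 2460 to 2659 in DM and 1369, 895 and 1328 in NO. For *Inhbb*, *Spry4* (r = 0.966) was among the closest, at 685, 1556 and 836 in GS, 4993 to 5573 in DM and 1614 to 2684 in NO. *Skil* was closest to *Dbp* (r = 0.975) and *Kdm4c* (r = 0.956). *Dbp* was at 146 to 151 in GS, 170 to 176 in DM and 131 to 143 in NO, a smaller change than that of *Skil*. Pearson's r does not measure the size of a change.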

How the data were processed

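As the study's methods describe, rRNA-depleted libraries were run by the authors on an Ion Torrent Proton, and reads were trimmed with Reaper, aligned to GRCm38 with STAR 2.4.0a and counted over exons with featureCounts, leaving out reads that matched several genes or positions. Use of the strand was not stated, but no member shares exon bases with another gene in the annotation (GENCODE). Each deposited value is a score, namely the reads of a gene scaled by DESeq2 and rounded to a whole number by the authors. A count model was therefore not fitted.

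Genes with a mean above 5 were fitted as log2(value + 1) with limma 3.58.1 in R 4.3.3, on all 9 samples with a mean-variance trend, and called at the thresholds of the study. All tests are two-sided. Fold changes understate those of low genes. The members, lists and naming rules (all members; pathway genes that were called, SMADs and receptors; 2 genes of like pattern per member) were chosen with earlier results of these data known. Some genes that these rules take in are counted but not reported here by name.

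Replicate numbers come from the labels and recur in each medium. Deviations of same-numbered NO and DM samples from their group means correlated at 0.16, 0.17 and 0.30. Samples with unlike numbers were not compared, so this check cannot decide whether the numbers pair NO with DM, and the labels do not say so. The main fit held no block, and the block tried as an alternative took in GS as well. The correlations for DM and GS (-0.18, 0.02 and -0.23) and for NO and GS (-0.05, 0.05 and -0.11) were of mixed sign. The labels do not say that the dishes were separate cultures in time, so p-values measure the spread between these samples, which may be technical. Depth was estimated from the steps among low values. Motifs were searched, and sequences aligned, in Python 3.11.15 with Biopython 1.88. Promoter sequences of *Lefty1*, *Lefty2*, *Gdf3* and *Skil* were not analysed here.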

Additional observations from a re-analysis of the deposited data

How the results depend on the processing

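Over 24 alternatives no member changed the direction of a call. Except for the rescaled fits, the calls over all genes were not counted in these alternatives. Their counts of members and pathway genes therefore stand without a share of all genes, and a higher or lower count does not set these genes apart. The calls of *Inhbb* and *Lefty1* in DM against GS and of *Lefty1* and *Skil* in NO against DM were made in 20 of the 20 that keep the thresholds. With the replicate number as a block the counts of members called were 2, 1 and 3 for DM against GS, NO against GS and NO against DM, as without it, those of the other pathway genes 6, 3 and 6, and the F test passed 5 members. No member's call changed with the block, but adjusted p-values crossed 0.05 for *Nodal* in NO against GS (0.0516) and, as given above, for *Tdgf1* and *Lefty1*.

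The call of *Inhbb* in NO against GS was lost, leaving 0 members, without the mean-variance trend, with precision weights, with quantile normalisation and with only the 6 samples compared. With no minimum fold change 2 members passed there (*Nodal* and *Inhbb*). With a minimum log2 fold change of 2 the members called were 1, 0 and 1 and the other pathway genes 4, 2 and 2 in DM against GS, NO against GS and NO against DM. A minimum mean of 50 left 4 pathway genes called in DM against GS and 2 in NO against GS. *Inha*, *Inhbc* and *Gsc*, with means of 20.3, 27.6 and 15.9 over all samples, were not tested at this minimum. In the main fit all of them were called in DM against GS, and *Gsc* also in NO against GS. Leaving out 1 sample at a time gave 0 to 2 members in NO against GS and 2 to 6 in NO against DM, and 4 to 8, 2 to 5 and 3 to 7 pathway genes in the 3 comparisons. The highest member counts came without NO replicate 1, where *Nodal* (1.03), *Inhbb* (-1.51) and *Tdgf1* (-1.10) were also called against DM and *Tdgf1* and *Lefty2* in place of *Inhbb* against GS. The fewest pathway calls came without GS replicate 3 or DM replicate 3 in DM against GS (4), without GS replicate 2 in NO against GS (2) and without DM replicate 3 or NO replicate 2 in NO against DM (3). The call of *Lefty2* in NO against DM was lost without any 1 sample other than NO replicate 1. Apart from genes that fell under the minimum mean, the causes were not tested.

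Quantile normalisation moved the median of all genes in NO against GS to -0.11, from -0.02, and the share of calls that were higher from 86.0% to 67.5%, from 79.3% to 65.1% in NO against DM and from 69.9% to 62.4% in DM against GS. Scaling to equal totals moved them the other way. The median in NO against GS was then 0.09, and the shares were 90.7% in NO against GS, 84.8% in NO against DM and 72.1% in DM against GS. With 3 samples per medium the spread of NO limits what can be said of *Nodal*, *Tdgf1*, *Lefty2* and *Inhbb* there, and *Inhba* was limited by depth.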
